A study of Mus musculus with 2 samples.

Results

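The unfolded protein and amino acid stress genes described here are 40 listed genes of the unfolded protein response and of the integrated stress response, measured in mouse small intestinal myofibroblasts. They were taken by name and not by a threshold on these values, but the list was drawn up with earlier results of these data known. Of the 40, 39 had a probeset paired with 1 gene and were measured, among 22180 named genes in all. The remaining one, Pdia4, a disulfide isomerase of the endoplasmic reticulum (ER), has its probeset paired with more than 1 gene and is not analysed here. For Edem1, which has 2 such probesets, the one with the higher mean over both arrays was used.

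Of 2 arrays, the stimulated one holds RNA of myofibroblasts of wild-type BALB/c mice, kept for 1 day with homogenised intestinal eosinophils at 5 mg/ml, and the non-stimulated one RNA of myofibroblasts of the same strain kept for 1 day without it. Myofibroblasts are contractile, matrix-secreting cells that lie beneath the gut epithelium, and eosinophils are granulocytes that reside there. Cells were grown as 3 cultures per condition and their RNA was pooled, so each condition is 1 array, differences have no error attached, and no test between conditions is possible. Precision is limited by this number of arrays, and no group that received a homogenate of other cells is analysed here.

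The ER folds secreted and membrane proteins, and a load of unfolded protein is sensed there by PERK (Eif2ak3), IRE1 alpha (Ern1) and ATF6. PERK, like the kinases that answer to amino acid shortage, phosphorylates the initiation factor eIF2 alpha, which lowers general translation and raises that of ATF4, a factor that drives genes of amino acid synthesis and uptake and of stress feedback. ATF6 is cut to release a factor that drives chaperone genes, and IRE1 alpha splices Xbp1 mRNA so that it encodes a factor for genes of folding and degradation. Fibroblasts that secrete collagen and other matrix proteins place a heavy load on this system. The array reads mRNA abundance and shows neither phosphorylation, cleavage nor splicing.

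Across these genes the differences were small, and the ATF4 arm lay lower than the ATF6 and XBP1 arms. Of 19 genes assigned to ATF4, 16 read lower on the stimulated array and 3 higher, with a median difference of -0.07 (stimulated minus non-stimulated, log2 scale). Of 16 measured genes assigned to ATF6 or XBP1, 7 read lower and 9 higher, with a median of 0.01. The difference between these medians was -0.08. Over all 14065 genes above background, 48.2% read lower, 50.2% higher and the median was 0.00, so the share of lower genes in the ATF6 and XBP1 arms was near that of all genes, and that in the ATF4 arm, 84.2%, was above it. No test stands behind this contrast, since genes are not replicates and each condition is 1 array.

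Each array gave a value for 41345 probesets, and the arrays correlated across probesets at 0.989. Receptor genes for smell and pheromones (olfactory and vomeronasal, 1405 probesets) gave a background level at their 95th percentile, which lay at 5.57 on the stimulated and 5.58 on the non-stimulated array. All 39 measured members were above it on both arrays. One label names eosinophils as the source of both samples, while titles and protocols name myofibroblasts. All 14 fibroblast markers were above background, with differences between -0.41 and 0.56. Of 9 measured eosinophil markers 2 were above background on at least 1 array, and Epx and Prg2, which encode granule proteins, were under it on both arrays. The eosinophil markers summed to 269 linear units on the stimulated and 290 on the non-stimulated array. Macrophage markers passed background for 4 of 10 genes, with sums of 521 on the stimulated and 485 on the non-stimulated array. Pan-leukocyte markers did for 3 of 5 genes (923 on the stimulated and 1027 on the non-stimulated array, of which Cd53 alone made 753 on the stimulated and 846 on the non-stimulated array, while Ptprc, the common leukocyte antigen, was under background on both), and epithelial markers for 3 of 6 (279 on the stimulated and 297 on the non-stimulated array). The part of these markers in the differences below was not tested, and in pooled RNA fewer cells of a type and less RNA per cell cannot be told apart.

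Promoter sequences show which of these genes carry the letters of the known stress elements, and they are given before the values since the arms are defined by these factors. Windows run from 250 bases before to 50 after the transcript start and come from RefSeq on GRCm38.p6, which had them for 36 of the 40 genes. Both strands were searched for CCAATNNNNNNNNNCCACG, the ER stress element bound by ATF6 with NF-Y, and for ATTGG followed after 1 base by CCACG, the ER stress element II. They were also searched for ACGTGG and the shorter ACGTG, cores of sites bound by XBP1, where each match of the longer core is also one of the shorter. The last motif was TGATGNAA, a core of the composite C/EBP-ATF element bound by ATF4 with a C/EBP partner. A match is a description of the letters and not a site in use.

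The ER stress element had a match in promoters of 8 of 15 genes of the ATF6 and XBP1 arms and of 0 of 18 genes of the ATF4 arm, against 0.137% of 27025 genes with a promoter. The 8 were Calr, Canx, Creld2, Hsp90b1, Hspa5 and Pdia6 of the ATF6 arm and Dnajc3 and Syvn1 of the XBP1 arm. The ER stress element II matched in Dnajb11 and Herpud1, against 0.0444% of all genes. The composite core matched in 5 of 18 genes of the ATF4 arm, Asns, Atf3, Chac1, Trib3 and Vldlr, and in Herpud1 of the ATF6 arm, against 4.51% of all genes. The XBP1 core ACGTGG matched in 4 of 15 genes of the ATF6 and XBP1 arms, Dnajb9, Dnajc3, Herpud1 and Pdia6, and in Aldh18a1 of the ATF4 arm, against 9.4% of all genes. Its shorter form ACGTG matched in 6 of those 15 genes and in 8 of 18 genes of the ATF4 arm, against 21.8% of all genes.

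The sequences below are those of 4 genes of the ATF4 arm with the composite core, shown because Trib3 and Atf3 had the largest differences of that arm. Each is written 5′ to 3′ on the strand of the gene, with the match in capitals (TGATGNAA, or TTNCATCA where it lies on the other strand). The whole window is given for Trib3, and the match with its flanks for the others.
Trib3, chr2:152344011-152344310, minus strand: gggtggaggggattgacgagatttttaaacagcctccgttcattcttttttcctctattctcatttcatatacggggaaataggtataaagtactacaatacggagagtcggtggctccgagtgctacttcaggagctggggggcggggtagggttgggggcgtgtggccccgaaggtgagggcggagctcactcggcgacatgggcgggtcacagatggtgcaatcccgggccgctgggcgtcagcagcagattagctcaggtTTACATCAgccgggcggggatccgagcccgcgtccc
Atf3, chr1:191183414-191183465, minus strand: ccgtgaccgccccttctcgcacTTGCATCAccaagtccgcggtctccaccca
Chac1, chr2:119351027-119351078, plus strand: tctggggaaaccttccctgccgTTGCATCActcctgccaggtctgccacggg
Asns, chr6:7693203-7693254, minus strand: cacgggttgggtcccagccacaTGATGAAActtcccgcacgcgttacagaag

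The match began at base 15 of the transcript in Trib3, where the start is base 1, 110 bases before the start in Atf3, 193 before it in Chac1 and 23 before it in Asns. Atf3 and Chac1 have the same letters at the match. Vldlr, whose sequence is not shown, has its match 200 bases before the start of one of its transcripts.

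The following 5 sequences are of genes of the ATF6 and XBP1 arms that carry an ER stress element and whose values scarcely differed between the arrays, apart from Dnajc3. Capitals mark the ER stress element, or the ER stress element II in Herpud1, in either orientation. The whole window is given for Hspa5.
Hspa5, chr2:34771840-34772139, plus strand: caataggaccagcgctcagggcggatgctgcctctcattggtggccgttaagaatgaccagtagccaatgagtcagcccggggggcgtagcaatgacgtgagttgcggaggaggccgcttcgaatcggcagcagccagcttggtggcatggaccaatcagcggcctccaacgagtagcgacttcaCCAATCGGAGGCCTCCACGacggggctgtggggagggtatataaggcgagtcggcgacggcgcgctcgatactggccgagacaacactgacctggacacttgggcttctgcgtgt
Hsp90b1, chr10:86705513-86705676, minus strand: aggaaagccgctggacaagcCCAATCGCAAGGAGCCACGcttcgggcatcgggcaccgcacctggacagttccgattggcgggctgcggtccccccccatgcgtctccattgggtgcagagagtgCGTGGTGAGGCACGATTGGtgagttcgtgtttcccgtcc
Calr, chr8:84847055-84847113, minus strand: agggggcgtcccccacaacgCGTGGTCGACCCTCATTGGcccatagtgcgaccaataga
Dnajc3, chr14:118937807-118937865, plus strand: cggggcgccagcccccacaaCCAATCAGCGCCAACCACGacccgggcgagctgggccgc
Herpud1, chr8:94386355-94386409, plus strand: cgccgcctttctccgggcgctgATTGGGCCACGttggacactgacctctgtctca

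The element began 65 bases before the start in Hspa5, 162 before it in Calr and 105 before it in Dnajc3. Hsp90b1 held 2 matches in opposite orientation, at 212 and 107 bases before the start. In Herpud1 the element II began 52 bases before the start.

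**Figure D1:**
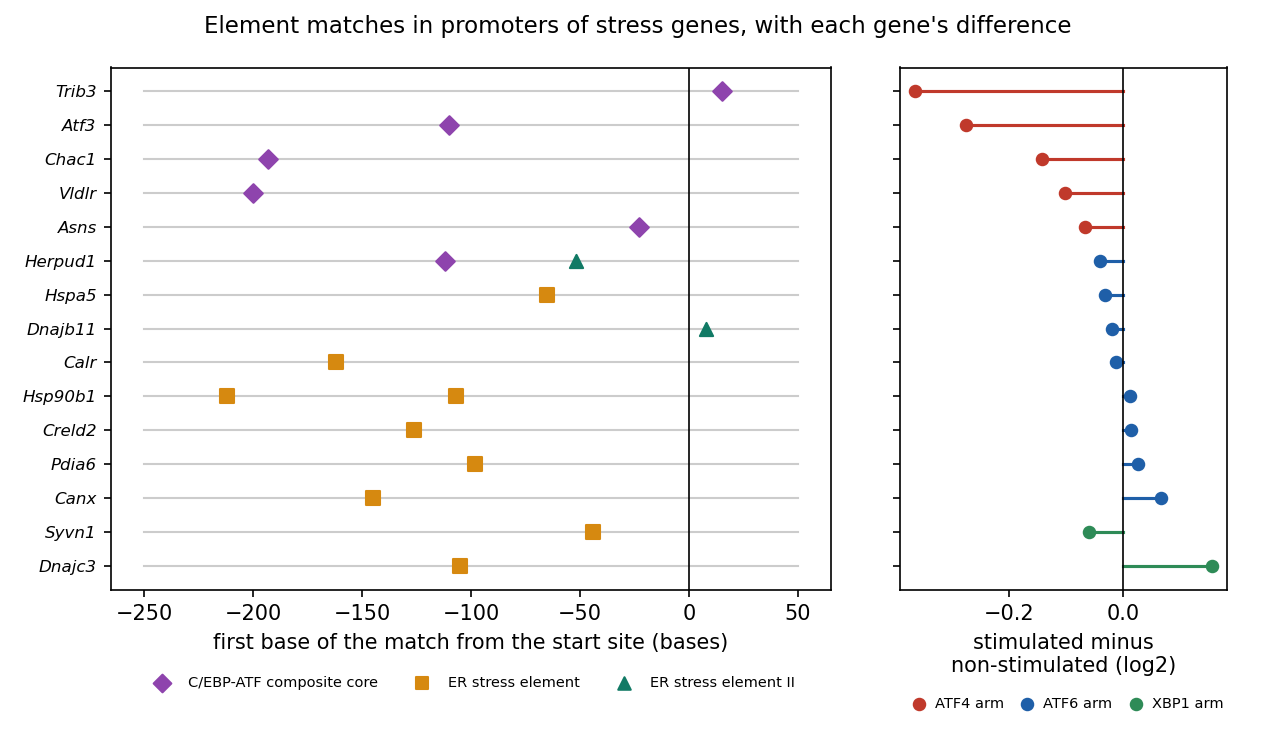
Matches of the composite C/EBP-ATF core and of both ER stress elements in the promoter windows of 15 genes (left, first base of the match from the transcript start in bases), beside each gene's difference in expression (right, log2, stimulated minus non-stimulated). All 5 genes of the ATF4 arm with a composite core lie below 0, but so do 10 of the 13 genes of that arm without one. Genes with an ER stress element lie on both sides of 0, as do the ATF6 and XBP1 arms as a whole.

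The transcription factors of the ATF4 arm all read lower on the stimulated array, Atf4 itself by almost nothing. Atf4 read 9.79 on the stimulated and 9.80 on the non-stimulated array, a difference of -0.01. Atf5, a related factor whose translation is also raised when eIF2 alpha is phosphorylated, read 9.70 on the stimulated and 9.85 on the non-stimulated array. Atf3, a factor induced by many kinds of stress, read 9.33 on the stimulated and 9.61 on the non-stimulated array, which is 1.21-fold lower. Atf3 thus had the largest difference of the 4 factors and was the only one past 1.2-fold, the threshold used here since no test can make a call. Ddit3 encodes CHOP, a factor downstream of ATF4 linked to cell death under lasting stress, and it read 8.86 on the stimulated and 8.98 on the non-stimulated array.

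Among feedback and effector genes of the ATF4 arm, 5 of 6 read lower, and Trib3 stood furthest from 0 of all 39 genes. Trib3, a pseudokinase that binds ATF4 and CHOP and restrains them, read 7.73 on the stimulated and 8.09 on the non-stimulated array, a difference of -0.36 or 1.29-fold lower. Chac1, an enzyme that degrades glutathione, read 7.38 on the stimulated and 7.52 on the non-stimulated array. Both are known as targets of ATF4 and CHOP, and Chac1 differed by -0.14, well short of 1.2-fold. Ppp1r15a (GADD34), the phosphatase subunit that reverses phosphorylation of eIF2 alpha, was the gene that read higher, at 7.27 on the stimulated and 7.21 on the non-stimulated array. Sesn2 and Ddit4, which both restrain the growth kinase complex mTORC1, differed by -0.06 and -0.02. Vldlr, the very low density lipoprotein receptor, differed by -0.10.

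Genes of serine and one-carbon synthesis, which supply serine, glycine and folate-bound carbon, were unequal among themselves. Phgdh, which takes the first step from glycolysis to serine, read 7.55 on the stimulated and 7.79 on the non-stimulated array, a difference of -0.25. Psph, which takes the last step of the same route, read 8.15 on the stimulated and 8.36 on the non-stimulated array, a difference of -0.21. The middle step of the route, Psat1, differed by only -0.02, so that the first and last enzymes read lower and the middle one nearly level. The mitochondrial enzymes downstream of serine differed less, with Shmt2 at -0.02 and Mthfd2 at 0.09, the highest value of the ATF4 arm. None of the 5 genes passed 1.2-fold.

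Other amino acid genes of the arm lay close to 0 or slightly below, apart from Slc7a5 at -0.17. Asns (asparagine synthetase), a classical gene of amino acid shortage, read 9.87 on the stimulated and 9.93 on the non-stimulated array. Aldh18a1, which begins proline synthesis from glutamate, differed by -0.06, about as Asns did at -0.07. Slc7a5 and Slc3a2 encode the light and the heavy chain of a transporter of large neutral amino acids. Slc7a5 read 9.71 on the stimulated and 9.88 on the non-stimulated array, whereas Slc3a2 read 10.59 on the stimulated and 10.57 on the non-stimulated array. The light chain gene was therefore lower by 0.17 and the heavy chain gene, whose product also pairs with other light chains, differed by 0.02.

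**Figure D2:**
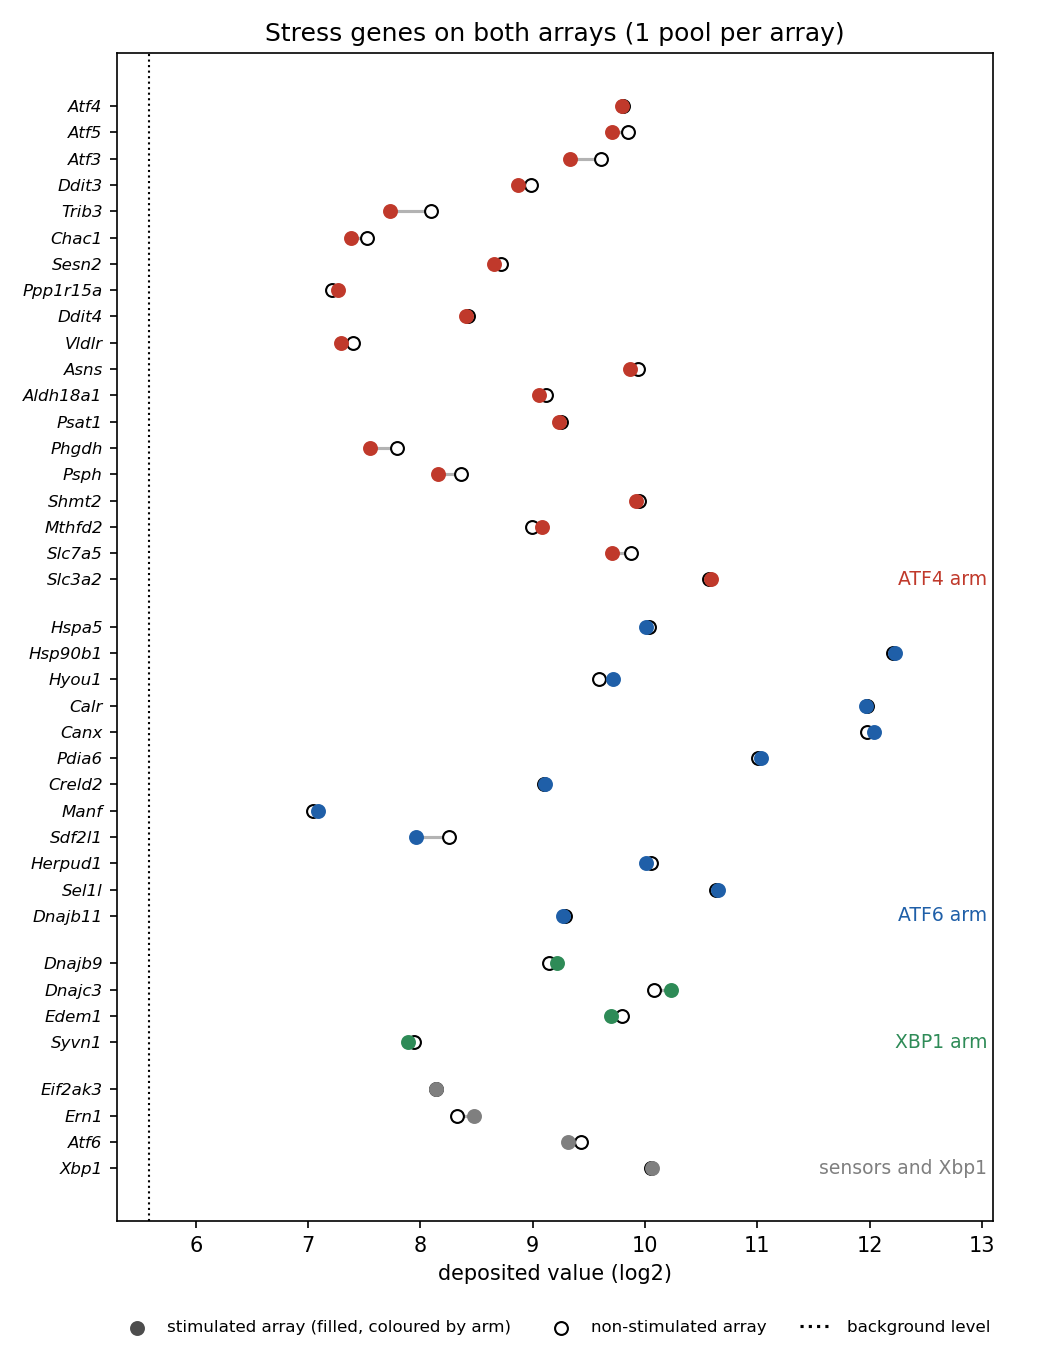
Deposited log2 values of the 39 measured genes on the stimulated array (filled, coloured by arm) and the non-stimulated array (open), with the background level dotted. Probesets differ in brightness, so levels are compared along a row and not between genes. Every gene lies above background, and the widest gap is that of Trib3, at 7.73 on the stimulated and 8.09 on the non-stimulated array.

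The major chaperones of the ER, the classical targets of ATF6, read almost the same on both arrays. Hspa5 (BiP), the abundant chaperone that holds the sensors inactive, read 10.01 on the stimulated and 10.04 on the non-stimulated array. Hsp90b1 (GRP94) read 12.22 on the stimulated and 12.21 on the non-stimulated array. Calr (calreticulin) and Canx (calnexin), which fold glycoproteins, differed by -0.01 and 0.07. The disulfide isomerase gene Pdia6 differed by 0.03. Hspa5 is a common readout of the unfolded protein response, and none of these 5 genes reached 1.1-fold in either direction.

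Further members of the ATF6 arm went both ways, and 1 of them differed more. Sdf2l1, a partner of the co-chaperone ERdj3, read 7.96 on the stimulated and 8.26 on the non-stimulated array, a difference of -0.30 or 1.23-fold lower. Dnajb11, which encodes ERdj3 itself, differed by -0.02, so the partners did not show like values. Hyou1, a large chaperone that helps BiP exchange its nucleotide, read 9.71 on the stimulated and 9.59 on the non-stimulated array, the highest difference of the arm at 0.12. Manf, a secreted protein that binds BiP, and Creld2, an ER-resident protein induced with it, differed by 0.04 and 0.01. Sdf2l1 alone of the 16 measured genes of the ATF6 and XBP1 arms passed 1.2-fold.

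Genes of ER-associated degradation, which moves misfolded proteins to the proteasome, differed little. Herpud1, a scaffold of the ubiquitin ligase complex, Sel1l, its adaptor, and Syvn1, the ligase HRD1, differed by -0.04, 0.02 and -0.06. Edem1, a lectin that hands over misfolded glycoproteins, differed by -0.10 at its brighter probeset. The dimmer probeset of Edem1, just above background, read 5.70 on the stimulated and 5.66 on the non-stimulated array, the opposite direction. The difference of Edem1 thus depends on the probeset.

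The J-domain helpers of the XBP1 arm were the ones that read higher. Dnajc3 (p58IPK), a co-chaperone of BiP, read 10.24 on the stimulated and 10.08 on the non-stimulated array, the largest positive difference of all 39 genes at 0.16. Dnajb9 (ERdj4), a helper of degradation and a well-known target of spliced XBP1, read 9.21 on the stimulated and 9.14 on the non-stimulated array. With Edem1 and Syvn1 lower, the XBP1 arm held 2 genes on each side of 0, and its median was 0.01 over 4 genes.

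The sensors were unequal among themselves, with Ern1 higher, Atf6 lower and Eif2ak3 nearly level. Ern1 (IRE1 alpha) read 8.47 on the stimulated and 8.33 on the non-stimulated array. Atf6 read 9.32 on the stimulated and 9.43 on the non-stimulated array. Ern1 was thus higher by 0.14 and Atf6 differed by -0.11, both short of 1.2-fold. Eif2ak3 (PERK) differed by 0.00 at 2 decimals and Xbp1 by 0.01. The Xbp1 probeset does not tell spliced from unspliced mRNA.

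**Figure D3:**
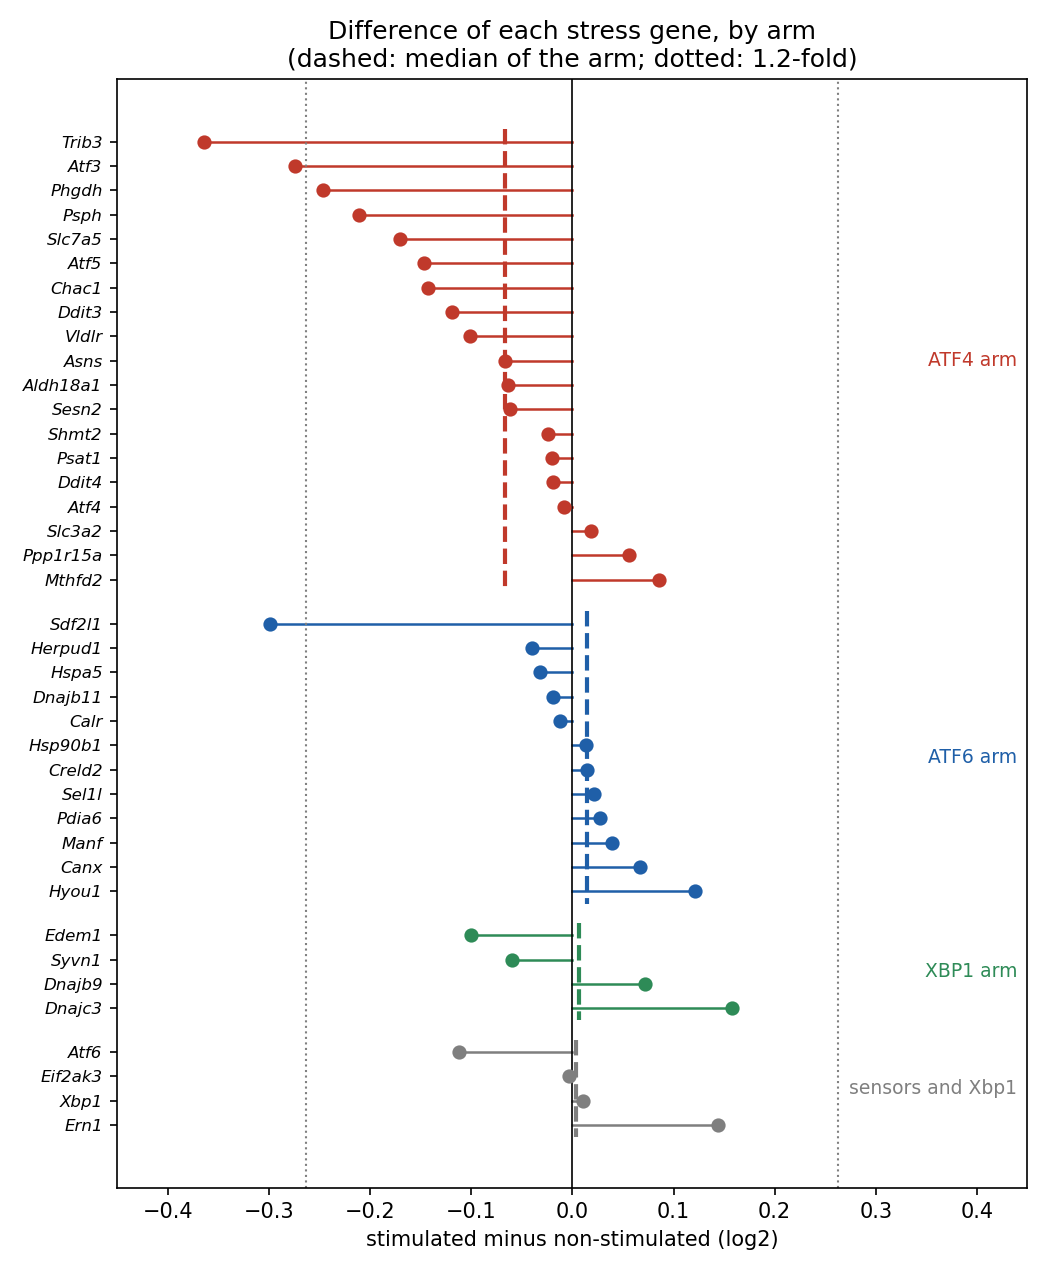
Difference of each measured gene (log2, stimulated minus non-stimulated), ordered within its arm, with the median of each arm dashed and 1.2-fold dotted. The ATF4 arm lies mostly left of 0 with a median of -0.07, and only Trib3, Atf3 and Sdf2l1 pass the dotted line, all 3 on the lower side.

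Counted by size, 3 of the 39 genes were lower by 1.2-fold or more on the stimulated array and 0 were higher by as much, while 36 stayed within 1.2-fold. Of all 14065 genes above background, 6.91% were at least 1.2-fold lower and 6.11% at least 1.2-fold higher, so 3 of 39, or 7.69%, is a share near the background. Dim probesets differ more between arrays, and among the 8124 genes whose mean was at or above that of the dimmest member, a set chosen after the values were seen, 3.09% were at least 1.2-fold lower and 3.91% at least 1.2-fold higher. In that brighter set 45.9% of genes read lower by any amount, and 53.3% higher. By arm, 2 of 19 genes of the ATF4 arm and 1 of 16 of the ATF6 and XBP1 arms were at least 1.2-fold lower.

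The spread of genes of like brightness gives a second scale. With the genes in 4 equal sets by mean value, the central 95% of differences lay between -0.25 and 0.29 in the brightest set, which holds 27 members, and between -0.29 and 0.32 in the next, which holds 9. Atf3 in the brightest set and Trib3 and Sdf2l1 in the next lay below these ranges, Atf3 and Sdf2l1 by a narrow margin. By construction 2.5% of all genes lie below the range of their set. No member lay above its range, and the 3 members of the second dimmest set, Manf, Ppp1r15a and Vldlr, lay inside theirs.

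**Figure D4:**
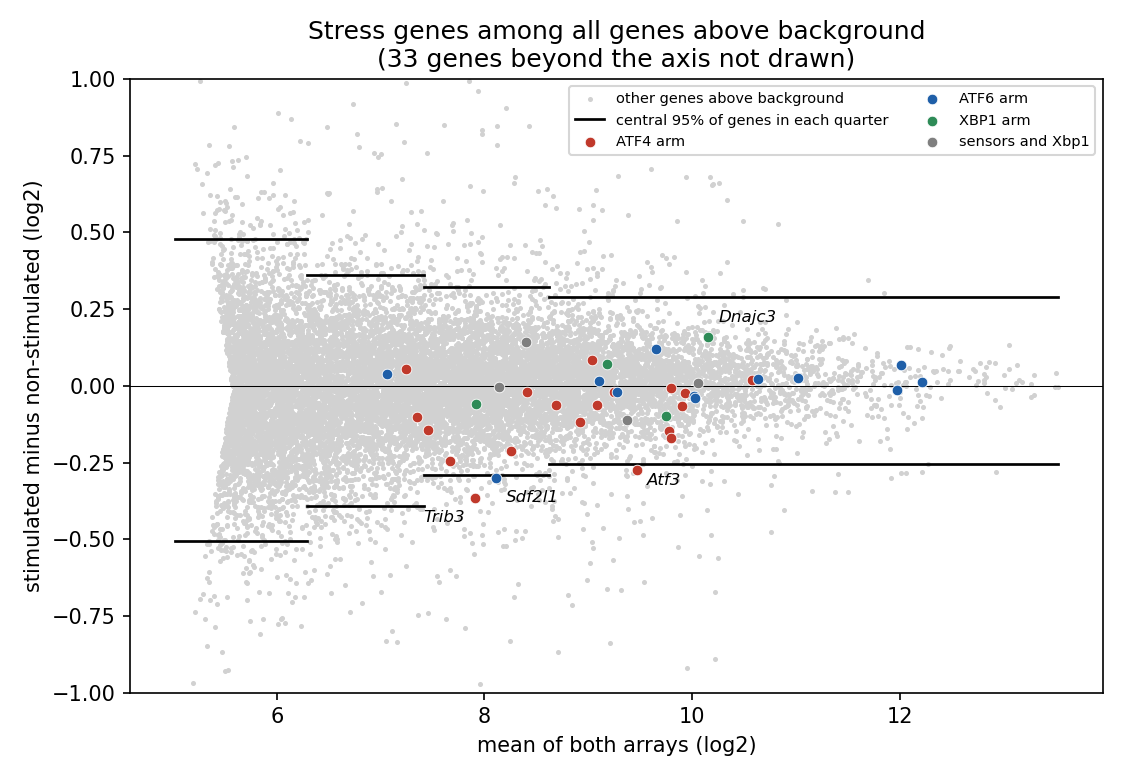
Difference (log2, stimulated minus non-stimulated) against the mean of both arrays for all genes above background, with the members coloured by arm and black lines for the central 95% of genes in each of 4 equal sets by mean. The members lie inside these lines apart from Trib3, Atf3 and Sdf2l1, which lie below them, and 33 genes beyond a difference of 1 in either direction are not drawn.

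Ordered by difference, the 10 lowest of the 39 members held 8 genes of the ATF4 arm, with Sdf2l1 and the sensor gene Atf6. The ATF4 arm makes up 19 of the 39, the ATF6 arm 12 and the XBP1 arm 4. This order restates the contrast between arms from the same values and adds no support to it. The 10 highest held 5 of the ATF6 arm, 2 of the XBP1 arm, 2 of the ATF4 arm and 1 sensor gene. The arms still overlapped over most of their range. The ATF4 arm ran between -0.36 and 0.09, and the ATF6 and XBP1 arms together between -0.30 and 0.16.

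Set beside the promoter letters, the 5 genes of the ATF4 arm with a composite core differed by between -0.36 and -0.07, with a median of -0.14. The 13 others with a promoter window differed by between -0.25 and 0.09, with a median of -0.02, and 10 of them read lower. Among the ATF6 and XBP1 arms, the 10 genes with either ER stress element differed by between -0.06 and 0.16, with a median of 0.00 and 5 on each side. The 4 measured genes without a match differed by between -0.30 and 0.07, and Sdf2l1 is one of them. The 15 genes of these arms with a promoter also include Pdia4, which has no value and is left out here. These sets are small, were formed after values were known, and have no test.

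Other genes of the same pathways gave the wider view. Their list was set by pathway and not by a threshold on these values. It was drawn up with earlier results of these data known. Of 38 other ATF4-linked and amino acid genes above background, 16 read higher, 21 lower and 1 the same (Shmt1, named after its value was seen), with a median of -0.02. The share that read lower, 55.3%, lay nearer the 48.2% of all genes than the 84.2% of the ATF4 arm. At least 1.2-fold higher were 4 of the 38, against 6.11% of all genes. At least 1.2-fold lower was 1, or 2.63%, against 6.91% of all genes. The 11 measured tRNA synthetases, which charge tRNAs with amino acids and include well-known ATF4 targets, lay between -0.15 and 0.05 with a median of 0.00. None of the synthetases passed 1.2-fold.

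The 5 genes past that threshold were not a uniform group. Slc7a11, the light chain of the cystine importer that pairs with Slc3a2 and a target of both ATF4 and NRF2, read 9.08 on the stimulated and 7.83 on the non-stimulated array, which is 2.38-fold higher. Cebpb, a C/EBP factor that can pair with ATF4 and is also induced by inflammatory cytokines, read 8.77 on the stimulated and 8.29 on the non-stimulated array, 1.39-fold higher. Slc7a11 lay furthest out, while its partner Slc3a2 was nearly level. Every gene at least 1.2-fold higher exceeds the highest of the members, 0.16 in Dnajc3, since no member was higher by as much. Eif2ak2, the kinase PKR that phosphorylates eIF2 alpha in answer to double-stranded RNA and is induced by interferon, was 1.24-fold higher, at 8.38 on the stimulated and 8.08 on the non-stimulated array. Cbs, which makes cystathionine from homocysteine, was 1.2-fold higher, at 6.25 on the stimulated and 5.99 on the non-stimulated array. The one on the lower side was Slc7a3, a carrier of cationic amino acids, at 6.22 on the stimulated and 6.53 on the non-stimulated array. Both Cbs and Slc7a3 lay close above background.

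Of 52 other genes of ER folding, export and degradation, 28 read higher and 24 lower, with a median of 0.02 and a range between -0.29 and 0.18. The only one past 1.2-fold was Sil1, a nucleotide exchange factor of BiP, at 8.36 on the stimulated and 8.64 on the non-stimulated array. As among the ATF6 and XBP1 members, values lay on both sides of 0. The 1 gene at least 1.2-fold lower was 1.92% of this list, and 1 such gene was 6.25% of those members. Over all genes above background the shares were 6.91% lower and 6.11% higher, and both lists held 0 higher. The plot of the lists shows the members beside these genes.

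**Figure D5:**
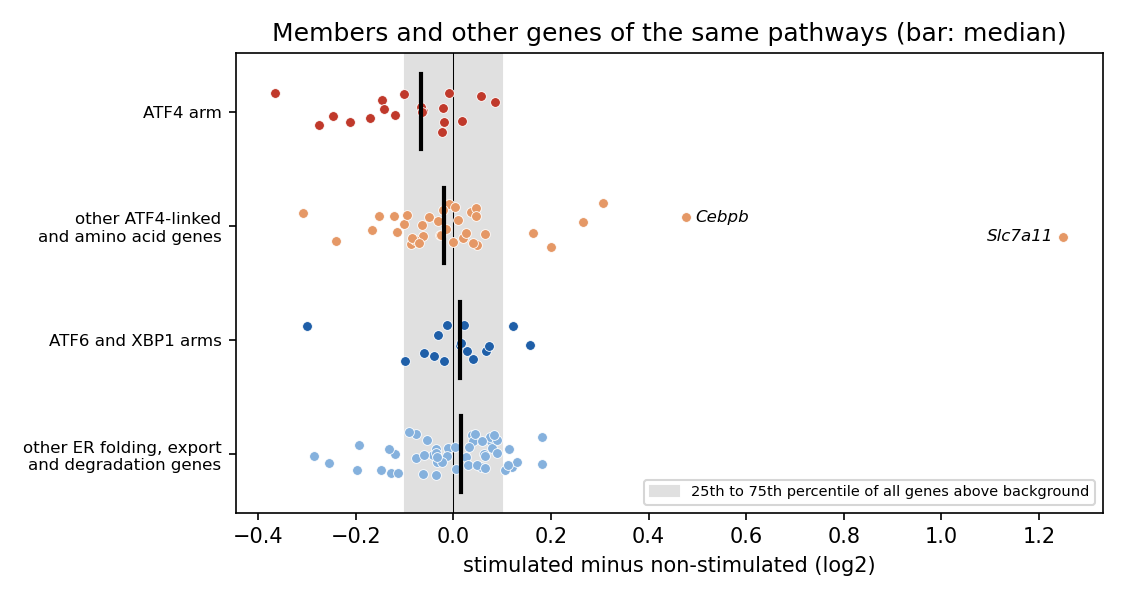
Differences (log2, stimulated minus non-stimulated) of the members and of the other genes of the same pathways, 1 point per gene above background, with a bar at the median of each list and the 25th to 75th percentile of all genes above background shaded. Points are spread vertically for legibility. The medians are -0.07 for the ATF4 arm, -0.02 for other ATF4-linked genes, 0.01 for the ATF6 and XBP1 arms and 0.02 for other ER genes, and Slc7a11 stands apart at 1.25.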

How the data were processed

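The log2 values analysed were deposited by the authors, 1 for each probeset on each array, and come from RNA pooled from 3 cultures per condition. Per the submitters' processing notes they were made with Affymetrix Expression Console and RMA. Versions are not stated there. RMA removes background signal and sets all arrays to one distribution, and after sorting, the 2 arrays were within 0.0757 of each other. An overall shift between the arrays would thus be removed, and differences are relative to all other genes.

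Of 41345 probesets, 23521 were paired with 1 gene by the platform annotation, and 23328 took the symbol of RefSeq GRCm38.p6. Each gene was represented by its probeset with the highest mean. A gene was taken as above background if it exceeded the 95th percentile of receptor genes on at least 1 array. All members are named, and other pathway genes where they passed 1.2-fold. The members, arms and lists were chosen with earlier results of these data known, and the arms rest on general knowledge, with targets shared between ATF6 and XBP1. Some list genes, and the planned comparison of protein ends, are not analysed here. With 1 array per condition no test and no p-value is given. Other background filters, probeset rules, centrings, lists and thresholds were tried. Scripts (Python 3.11.15, statsmodels 0.14.6) were tested on simulated data with known shifts and on planted motifs.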

Additional observations from a re-analysis of the deposited data

How the results depend on the processing

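Of 101 alternatives to the medians, counts and the Edem1 value that were planned with the design, 42 were background settings that could not move any value, since all members lie above each background level used, and 14 were the mean of probesets, which can alter only Edem1 and moved 1 value. Of the other 45, 27 left the value as it was at 2 decimals (counts within 1.5 times), 16 moved it and 2 reversed it. Some of these 27 were also fixed in advance. Centring on the median of all genes cannot alter the difference between arms, and a count of 0 at 1.2-fold cannot rise at 1.5-fold. Under both centrings the median of the ATF4 arm stayed below 0 and that of the ATF6 and XBP1 arms together above 0 (narrowly so for these with the lowess trend). Centring on a lowess trend over mean expression gave medians of -0.0368 for all members, -0.0826 for the ATF4 arm, 0.0016 for the ATF6 arm, 0.0016 for the ATF6 and XBP1 arms together, and -0.0035 for the XBP1 arm, which reversed. The XBP1 median was 0.0216 with the mean of all probesets and 0.0048 centred on the median of all genes. Without genes that answer to both factors, the ATF6 arm gave 0.0175 and the XBP1 arm 0.0721. From the XBP1 arm this took out only Syvn1, and the median of that arm is then the value of Dnajb9. Without Atf3, Ddit4, Vldlr and Atf5 the ATF4 arm gave -0.0637. With means in place of medians, the ATF4 arm minus the other arms was -0.0974. At 1.1-fold, 2 members were higher and 8 lower, of which 7 lower ones were in the ATF4 arm and 1 higher one in the ATF6 and XBP1 arms. The share of all genes past 1.1-fold was not worked out, so the counts at 1.1-fold have no background to be read against. At 1.5-fold none was higher and 0 were lower in either set. The other probeset of Edem1 gave 0.0418, against -0.10 at the brighter one. The share of all genes at least 1.2-fold lower was 3.09% in the brighter set chosen after the data were seen, and 3.91% were higher. The cause of these shifts was not tested beyond the construction of each alternative. No paired analysis was possible because each condition is 1 array of pooled RNA.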
